A study of Mus musculus with 6 samples.

Results

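The accessory subunits of Polycomb repressive complex 2 (PRC2) were examined by the RNA of their genes in neural progenitor cells (NPCs) with and without Ybx1. They are 7 of the 51733 genes in the count tables and were taken by name. Jarid2 and Aebp2 encode the accessory subunits of the PRC2.2 form, and Mtf2, Phf1, Phf19, Epop and Lcor those of the PRC2.1 form.

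PRC2 methylates lysine 27 of histone H3, a mark of silenced genes. Its core holds a methyltransferase, Ezh2 or Ezh1, together with Eed, Suz12 and the histone-binding proteins Rbbp4 and Rbbp7. Accessory proteins bind the core through Suz12 and set where the complex sits and how active it is, and the subunits of PRC2.1 and PRC2.2 exclude each other on it. In the developing nervous system PRC2 holds regional and neuronal genes silent until they are needed. Ybx1 encodes a Y-box protein that binds both DNA and RNA.

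Total RNA was sequenced from 3 control (wild-type sibling) and 3 Ybx1-KO libraries of mouse NPCs, sorted as Sox2-positive cells from neural tubes at E13.5. The sample labels give the strain as C57BL/6. Embryos of both groups expressed the Sox2-eGFP reporter used for the sort, which the study lists as B6;129S1-Sox2tm1Hoch/J. The Ybx1-KO embryos carried the null allele Ybx1tm1Ley on both chromosomes and lacked Ybx1 in every tissue, not in NPCs alone. Letters stand for libraries here, A to C for the controls and D to F for the Ybx1-KO embryos. The sample titles number A and B alike and D and E alike in their first number, which is not explained. The p-values thus measure the spread between these libraries, which may be technical or shared by litter. The study names the controls siblings, but no first number occurs in both groups. Whatever that number stands for therefore cannot be told apart from genotype.

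The libraries held 4743279 (F) to 23883542 (B) counts on genes, at which 3 counts stand for 0.126 to 0.632 CPM, the count scaled to a library's total on genes. Library F stood apart, with 59.5% of its tallied read pairs outside genes and 4691 CPM in total at 1942 chemosensory receptor genes (olfactory, vomeronasal, taste), which reached 25.5 to 98.3 CPM in the other 5 libraries. All 10 neural progenitor markers, Sox2 among them, were detected in every library (summed level 1286 to 2208 CPM), but the 12 neuron markers summed to more, at 1847 to 5395 CPM, so the sorted cells held neuronal RNA as well. Erythroid markers (9 genes) summed to 200.5 to 1215 CPM. The 6 mesenchyme markers summed to 839, 119 and 208 CPM in controls and 99.7, 123 and 63.5 CPM in D to F, and all 6 had a negative log2 fold change, 5 of them at an unadjusted p under 0.05. The part of these cell types in the levels below was not tested. Ybx1 itself, the deleted gene, measured 234.8, 523 and 301 CPM in the controls A to C but 124, 54.5 and 9.51 CPM in D to F. The Ybx1-KO libraries were thus all lower than the controls, though none was at 0. Its log2 fold change was -2.49 ± 0.675 (± standard error, as for every fold change given here), with an adjusted p of 0.302 by edgeR's quasi-likelihood test and Benjamini-Hochberg adjustment.

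Levels of 1 gene are given as CPM with TMM-scaled library sizes (TMM evens out composition between libraries), and the same edgeR test and adjustment over 21330 genes were used throughout. To be called, a gene needed more than a 1.5-fold difference as well as an adjusted p under 0.05. None of the 7 accessory genes was called, and the background was the same, since 0 of the 21330 tested genes (0%) were called. Of the 7, 1 had an unadjusted p under 0.05, as did 2394 of all tested genes. Neither limma-voom nor DESeq2 called an accessory gene, while over all genes limma-voom called 0 and DESeq2 214. The smallest adjusted p among the accessory genes was 0.433, against 0.168 over all tested genes. Of the 7 genes, 4 had a positive and 3 a negative log2 fold change, with a median of 0.061. Over all tested genes 61.3% were positive and the median was 0.31. That background depended on library F. Without F the median was 0.013 over the 15185 genes then tested, and -0.066 on the 21330 genes tested with all 6 libraries. In bulk RNA of this kind, fewer cells expressing a gene and less RNA per cell cannot be told apart.

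**Figure D1:**
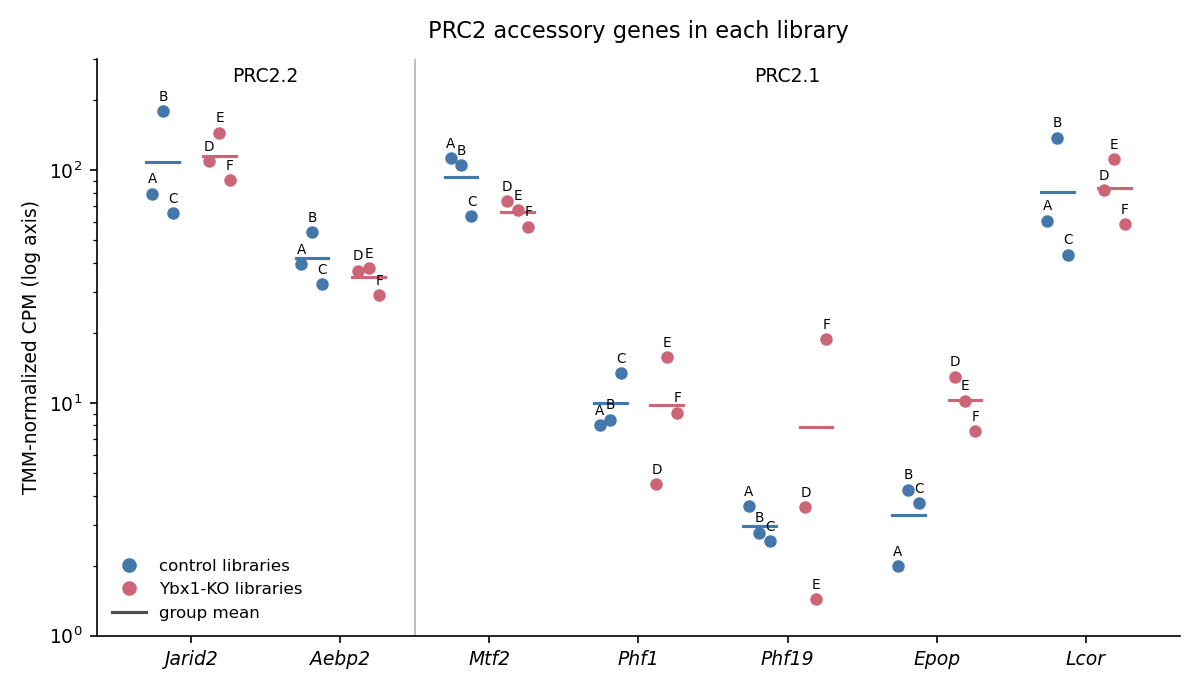
TMM-normalized CPM of the 7 accessory genes in each of the 6 libraries, on a log axis, with control libraries A to C in blue, Ybx1-KO libraries D to F in red and a bar at each group mean. The groups are apart in Epop alone, at 1.98 to 4.24 CPM in control and 7.56 to 12.95 CPM in Ybx1-KO libraries, and library F stands high in Phf19.

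Jarid2, whose protein binds nucleosomes and RNA and stimulates the methyltransferase in PRC2.2, lies on chromosome 13 of GRCm38 from 44729474 to 44921643. It measured 79.15, 179.6 and 65.2 CPM in controls A to C, and 109, 145 and 90.5 CPM in D to F. The control libraries thus spanned a 2.76-fold range that enclosed all 3 Ybx1-KO libraries. The means were 108 ± 62.4 CPM in control and 115 ± 27.6 CPM in Ybx1-KO NPCs (SD, n = 3 each). The log2 fold change was 0.088 ± 0.446, with a 95% confidence interval from -0.85 to 1.03 (edgeR adjusted p = 0.941, two-sided exact permutation test p = 0.9). As a ratio, that interval runs from 0.553 to 2.04 times the control level.

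Aebp2, the zinc-finger partner of Jarid2 in PRC2.2, lies on chromosome 6 from 140622663 to 140678472. Its levels were 39.4, 54.2 and 32.4 CPM (A to C) against 36.95, 37.9 and 29.1 CPM (D to F). Control C lay between the Ybx1-KO libraries, so the groups overlapped. The log2 fold change was -0.28 ± 0.370 (interval -1.06 to 0.50, edgeR adjusted p = 0.733).

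Mtf2, Phf1 and Phf19 encode the Polycomb-like proteins, each of which carries a Tudor domain that reads histone H3 methylation and a domain that binds CpG-rich DNA. Mtf2, on chromosome 5 from 108065674 to 108109004, reached 112, 105 and 63.6 CPM in controls A to C and 73.6, 67.15 and 57.1 CPM in D to F. Only control C, at 63.6 CPM, fell within the Ybx1-KO range. Its means of 93.5 ± 26.2 and 65.9 ± 8.31 CPM (SD, n = 3 each) gave the most negative log2 fold change of the 7, -0.50 ± 0.384 (interval -1.32 to 0.31, edgeR adjusted p = 0.535).

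Phf1, on chromosome 17 from 26933052 to 26937908, gave 8.03, 8.48 and 13.4 CPM in controls A to C, and 4.47, 15.7 and 9.09 CPM in D to F. The lowest and the highest value were both in Ybx1-KO libraries, D and E. The log2 fold change was -0.028 ± 0.549 (edgeR adjusted p = 0.987). Of its exon bases 39.3% are shared with genes on the opposite strand, Cuta and AC144621.3, so with the strand setting of the counting unknown some of its counts may belong to them.

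Phf19, on chromosome 2 from 34893757 to 34914026, was low in controls A to C, at 3.59, 2.76 and 2.55 CPM against 3.57, 1.43 and 18.8 CPM in D to F. Library F held 134 of its counts, more than any other library despite having the fewest counts in all, and E held 14. The log2 fold change was 1.41 ± 0.857 (edgeR adjusted p = 0.476). It was -0.26 without library F on the genes tested with all 6 libraries, so the positive value rests on F. Phf19 also passed the filter on low values, a mean above 1 FPKM (library-scaled counts per kilobase of exon) in either group, through F alone. If F carried reads outside genes at the density seen on its receptor genes, 18.8 of its 134 Phf19 counts (14%) would be such reads. The part of such reads in the Phf19 level was not tested further.

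Epop encodes the PRC2.1 subunit that couples the complex to Elongin B and C and is mutually exclusive with the Lcor product. It is a gene of 1 exon of 2314 bases on chromosome 11 from 97627389 to 97629702. Epop drew 42, 92 and 74 raw counts in controls A to C but 116, 100 and 54 in D to F, so D and E exceeded every control library although they were sequenced less deeply. Scaled, they came to 1.98, 4.24 and 3.70 CPM in control NPCs against 12.95, 10.2 and 7.56 CPM without Ybx1. At the density seen on receptor genes, 8.62 of the 54 Epop counts in F (16%) would be reads from outside genes, against 0.0721 to 1.82% in the other libraries. With that background subtracted from every library, the log2 fold change of Epop was 1.65. The part of such reads in its level was not tested further.

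All 3 Ybx1-KO libraries thus lay above all 3 control libraries, which was true of none of the other 6 accessory genes in either direction. Over all tested genes 4.99% showed this pattern, and 8.17% the opposite one. The means of Epop were 3.31 ± 1.18 and 10.2 ± 2.70 CPM (SD, n = 3 each), a 3.09-fold difference with an interval from 1.24 to 7.73. Its log2 fold change was 1.63 ± 0.626, with edgeR p-values of 0.0188 unadjusted and 0.433 adjusted. The two-sided exact permutation test gave p = 0.1, which 3 against 3 libraries cannot go below. At an unadjusted p below 0.05 6.96% of all tested genes were higher without Ybx1 and 4.27% were lower, so Epop was 1 of 1484 such higher genes and its difference did not pass the correction.

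GC content and position along the neural tube were set beside the level of Epop. Its transcript is 66.9% G and C, the richest of the 7, and the 126 tested genes within 2 percentage points of that content had fold changes centred on a median of 1.20 (log2), and 78.6% were positive. In 15.9% of those genes all Ybx1-KO libraries lay above all controls, and in 3.17% below. At the other end, the 1405 tested genes with a GC content like that of Mtf2 (38.2%) had a median of -0.19, and the 2659 like Aebp2 (40.9%) one of -0.12. With offsets fitted to GC content in each library, the log2 fold change of Epop was 1.21 (unadjusted p = 0.0850 in edgeR's test), and that of Mtf2 was -0.19.

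The summed level of 19 caudal Hox genes, which mark hindbrain and spinal cord, came to 85.8, 809 and 242 CPM (A to C) and to 988, 1062 and 459.6 CPM (D to F). Library A was lowest and B highest among controls in both Epop and this sum, and F lowest among Ybx1-KO libraries, while the Hox sums of the groups overlapped. Gene by gene, all 19 Hox genes had a positive log2 fold change, against 61.3% of all tested genes. Of these 19, 7 had an unadjusted p under 0.05 in edgeR's test. Of 6 forebrain markers 2 were positive and 4 negative, and their sums overlapped between the groups. Control B had a larger Hox sum than F but less Epop, and D and E stood in opposite order in the 2 quantities. The part that GC content and position along the neural tube play in the level of Epop was not tested beyond these values.

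Lcor encodes a ligand-dependent corepressor, and its locus also gives the PRC2.1 subunit Pali1, which counts per gene cannot separate from it. It lies on chromosome 19 from 41482637 to 41562261. Lcor measured 60.6, 138 and 43.4 CPM across A to C, against 82.2, 111 and 58.6 CPM across D to F. As in Jarid2, control B was highest and control C lowest, with the Ybx1-KO libraries in between. Its log2 fold change was 0.061 ± 0.456 (interval -0.90 to 1.03, edgeR adjusted p = 0.961).

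**Figure D2:**
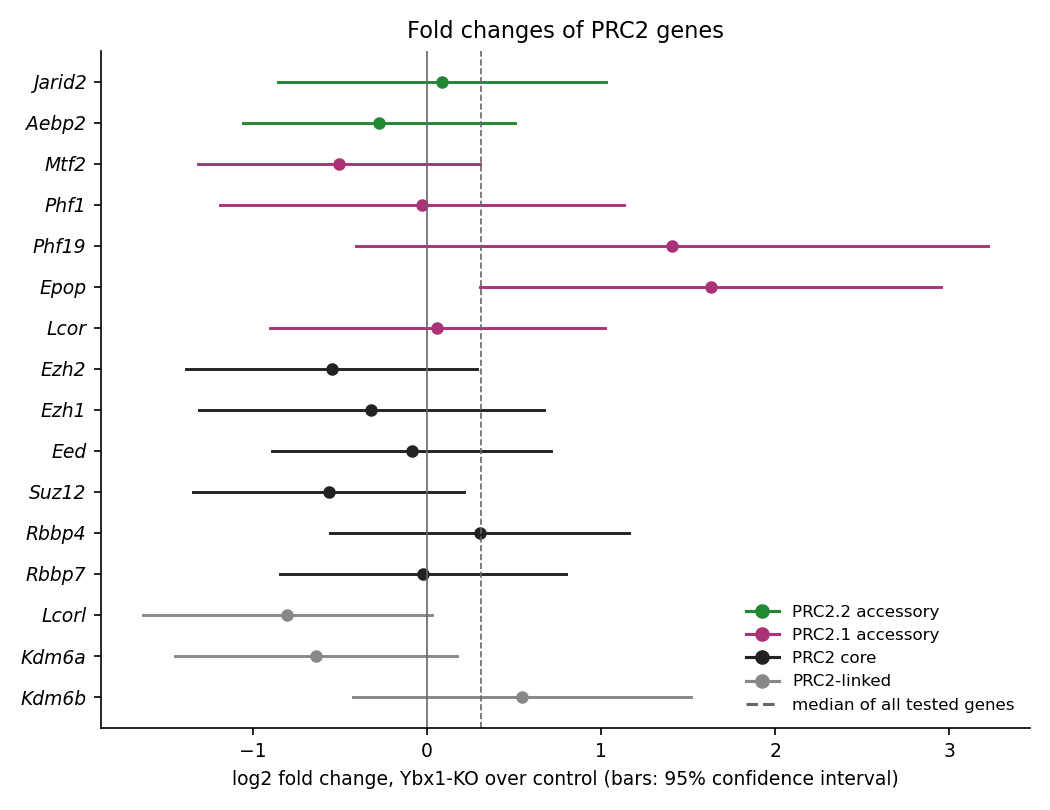
Log2 fold change of Ybx1-KO over control with its 95% confidence interval for the accessory genes, the PRC2 core genes and 3 linked genes, with a dashed line at the median of all tested genes (0.31). The interval of Epop, from 0.31 to 2.95, is the only one of those drawn that does not cross 0, and no adjusted p passed 0.05.

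Jarid2 and Lcor followed each other from library to library although they belong to different forms of the complex. The ratio of Jarid2 to Lcor, per length in FPKM, was 1.06, 1.06 and 1.22 in controls A to C, and 1.08, 1.06 and 1.26 in D to F, while each gene alone varied 2.76-fold and 3.18-fold among the controls. Likeness was measured as the root mean square difference of centred log2 CPM over the 6 libraries, against 13694 protein-coding genes. Lcor was the second nearest gene to Jarid2 (0.104 on the log2 scale, with a median of 0.749 over all genes), and Dach1 was the nearest to both (0.0794 and 0.0778). Dach1 encodes a nuclear factor of the Dachshund family. This is a description over 6 libraries that differ in depth and in how levels vary with GC content, and it has no test. The cycling markers were also highest in B and E (1022 and 1108 CPM summed over 8 genes) and lowest in A and C (698 and 727 CPM). The caudal Hox sum was likewise lowest in A and C (85.8 and 242 CPM), but highest in D and E (988 and 1062 CPM). The neuron sum was highest in B (5395 CPM) but lowest in F (1847 CPM). The part of these marker lists in the Jarid2 and Lcor levels was not tested.

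No other accessory gene had another of the 7 among its nearest. Aebp2 and Mtf2 were next, at a difference of 0.218, where Aebp2 ranked 375 among the genes nearest to Mtf2. Mtf2 was nearest to Stag2, a cohesin subunit, at 0.0544 and to Pspc1, a paraspeckle protein, at 0.0576. Epop was nearest to Six5, a homeobox gene whose 5.90, 12.6 and 9.90 CPM in control compared with 26.6, 27.1 and 18.6 CPM in D to F. Phf19 was nearest to Hook2, with 5.86, 3.36 and 4.15 CPM in control NPCs and 4.35, 2.66 and 26.3 CPM in D to F, again high in F alone.

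**Figure D3:**
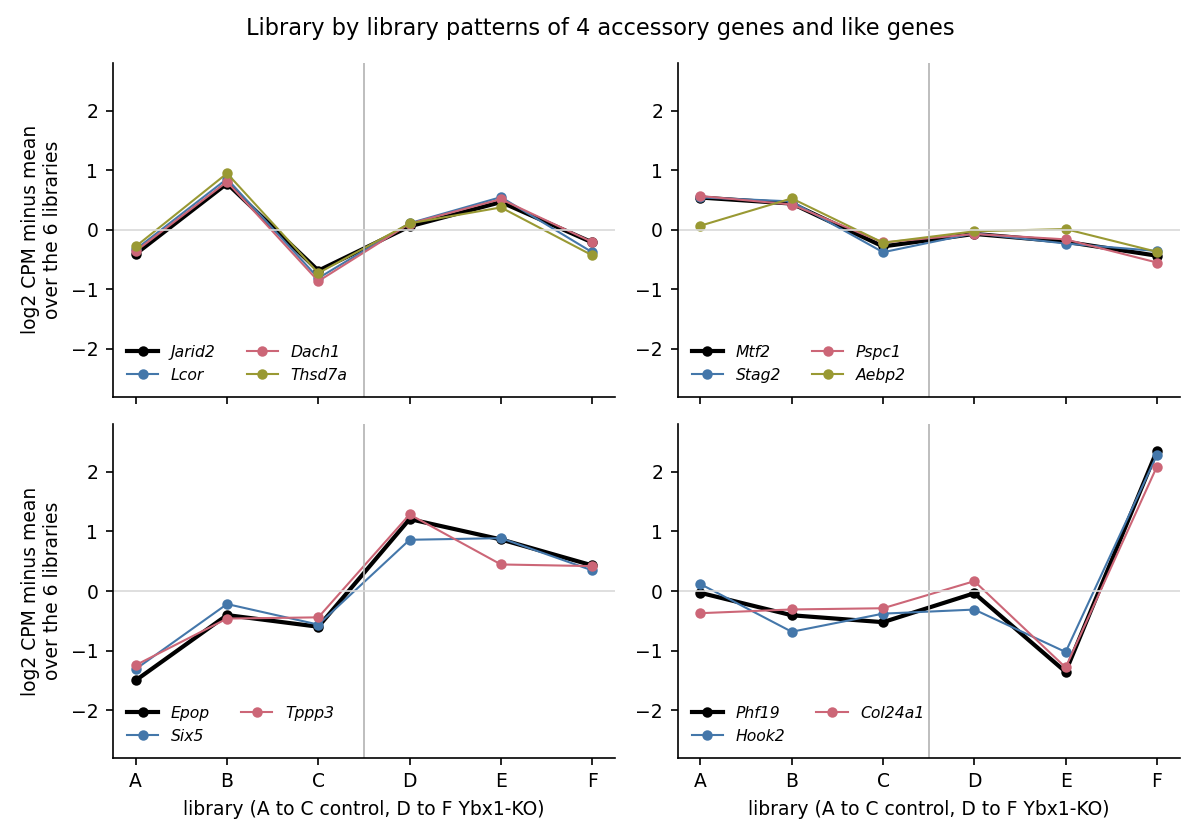
Log2 CPM minus its mean over the 6 libraries for Jarid2, Mtf2, Epop and Phf19, in libraries A to C (control) and D to F (Ybx1-KO). Each is drawn with its nearest 2 genes. Added to these are Thsd7a, a nearest gene of Lcor, beside Jarid2, and Aebp2, the nearest accessory gene, beside Mtf2. The lines only join the points of a gene. Jarid2 and Lcor overlie each other, Mtf2 falls between the control and Ybx1-KO libraries with C low, Epop is higher in D to F and Phf19 is high in F.

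The promoters of Jarid2 and Lcor, the pair whose levels ran together, are shown as 300-base RefSeq windows of GRCm38.p6, from 250 bases before to 50 bases after the annotated start. Capitals mark CCAAT or its reverse complement ATTGG, the core of the Y-box to which Y-box proteins were first found to bind. Both letter strings were searched, which covers both strands, and they do not overlap each other.
Jarid2, first start, chr13:44730524-44730823, + strand: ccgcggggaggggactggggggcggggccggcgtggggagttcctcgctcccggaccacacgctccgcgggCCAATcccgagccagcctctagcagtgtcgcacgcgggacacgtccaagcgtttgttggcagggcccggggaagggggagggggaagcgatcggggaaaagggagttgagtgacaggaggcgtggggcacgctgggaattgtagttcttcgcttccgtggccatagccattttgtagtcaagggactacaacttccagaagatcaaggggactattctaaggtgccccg
Jarid2, second start, chr13:44731021-44731320, + strand: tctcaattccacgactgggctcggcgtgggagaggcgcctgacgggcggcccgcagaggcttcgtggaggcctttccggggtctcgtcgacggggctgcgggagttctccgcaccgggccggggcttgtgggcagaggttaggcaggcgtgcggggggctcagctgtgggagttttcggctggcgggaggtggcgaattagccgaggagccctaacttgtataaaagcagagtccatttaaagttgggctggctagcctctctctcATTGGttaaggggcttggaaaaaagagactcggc
Lcor, chr19:41482432-41482731, + strand: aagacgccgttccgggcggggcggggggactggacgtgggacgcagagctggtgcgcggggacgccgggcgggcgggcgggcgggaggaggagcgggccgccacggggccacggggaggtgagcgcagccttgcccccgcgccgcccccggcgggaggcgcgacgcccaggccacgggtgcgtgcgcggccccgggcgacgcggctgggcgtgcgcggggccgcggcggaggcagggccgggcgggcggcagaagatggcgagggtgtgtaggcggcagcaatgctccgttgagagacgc

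The first Jarid2 window held CCAAT once, at position -179 from the start, and the second held ATTGG once, at position 17. The Lcor window held neither. It had 49 CpG dinucleotides, against 24 and 23 in the Jarid2 windows and a median of 7 over the 32851 windows of the table. Of all windows 37.4% held CCAAT or ATTGG, and of the 10 windows of the 6 accessory genes that matched, 4 did, in Jarid2, Aebp2 and Mtf2. Epop was not matched. These matches describe letters only.

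Levels of different genes were compared per length, in FPKM. In control NPCs the order was Mtf2 (15.7 ± 4.92), Jarid2 (10.4 ± 5.61), Lcor (9.56 ± 5.59), Aebp2 (4.04 ± 0.977), Phf1 (2.70 ± 0.747), Epop (1.34 ± 0.416) and Phf19 (0.564 ± 0.139; SD, n = 3 each). Mtf2, Jarid2 and Lcor took the first 3 places in every library, and Mtf2 and Jarid2 changed places between libraries, as did Aebp2 and Phf1. In Ybx1-KO NPCs Epop, at 4.69 ± 1.35 FPKM, stood beside Aebp2 at 3.75 ± 0.833 FPKM, and Phf19 was lowest in D and E but next after those 3 in F.

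Shares of the summed FPKM of the 7 genes do not depend on the scaling between libraries. Jarid2 and Aebp2 together, the PRC2.2 share, made up 28.0%, 37.1% and 30.7% in controls A to C, and 32.7%, 34.8% and 31.2% in D to F. The balance between PRC2.2 and PRC2.1 transcripts thus overlapped fully between the groups, at 31.9 ± 4.70% and 32.9 ± 1.82% (SD, n = 3 each). Of single genes, Epop held 1.98%, 2.84% and 4.91% in control and 12.2%, 8.21% and 8.31% in Ybx1-KO libraries, and Mtf2 held 45.4%, 28.5% and 34.2% against 28.2%, 21.9% and 25.5%. Aebp2 held 9.23%, 8.52% and 10.1% against 8.18%, 7.15% and 7.52%. The groups did not overlap in these 3 shares, though control B and Ybx1-KO D lay close in Mtf2 and in Aebp2. How often such shares part the groups in other sets of genes was not measured. Of the 7 transcripts that of Epop is the richest in G and C (66.9%), and those of Mtf2 (38.2%) and Aebp2 (40.9%) are the poorest. The part of GC content in the shares was not tested. The shares have no test, and since they sum to 100% a larger share of Epop, or of Phf19 in F, lowers the others. In CPM the groups overlapped in Mtf2 and Aebp2.

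**Figure D4:**
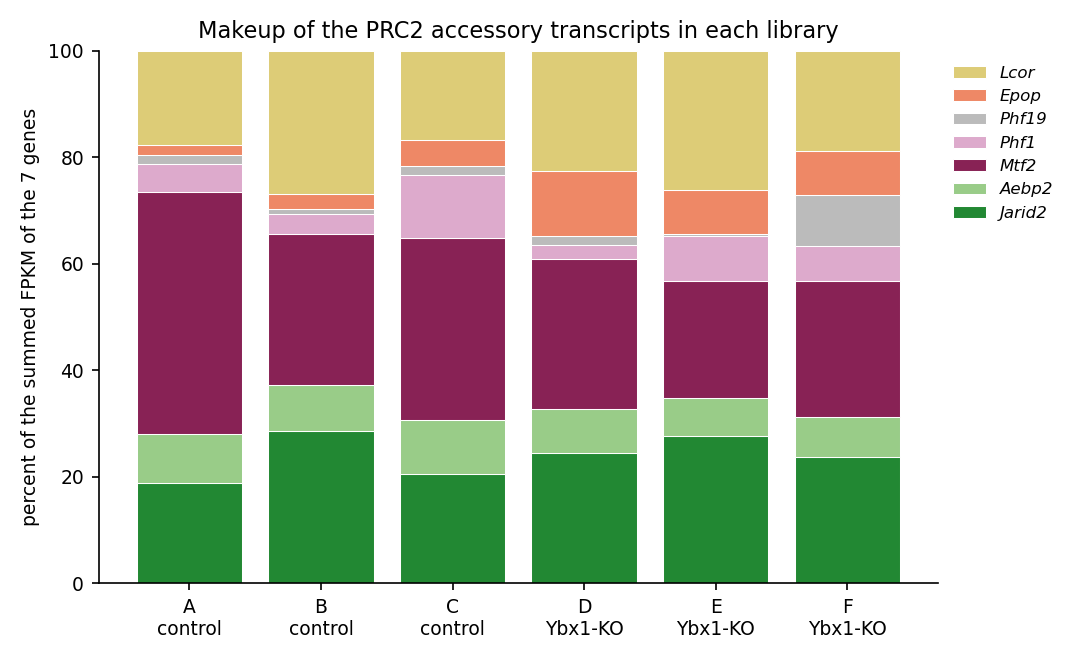
Stacked shares of the 7 genes in their summed FPKM, in percent, for each of the 6 libraries. The green PRC2.2 blocks fill 28.0 to 37.1% in every library, the Epop block is wider in D, E and F, and the Phf19 block is wide in F alone (9.47%).

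Relative to Suz12, the core subunit to which the accessory proteins bind, the summed FPKM of the 7 genes was 2.35, 3.18 and 2.26 in controls A to C, and 3.49, 4.25 and 3.85 in D to F. The groups did not overlap in this ratio, but they did in the summed FPKM itself, at 44.1, 58.7 and 30.2 in control and 48.4, 39.5 and 59.2 in Ybx1-KO libraries. They also overlapped in the FPKM of Suz12, at 18.75, 18.48 and 13.37 in control and 13.87, 9.305 and 15.39 in Ybx1-KO libraries. In TMM-scaled CPM, given below, Suz12 was lower in every Ybx1-KO library than in any control. Aebp2 over Suz12 was 0.217, 0.270 and 0.228 in control against 0.286, 0.304 and 0.289 in Ybx1-KO libraries, higher without overlap, whereas its share of the 7 genes was lower, so its direction depends on the denominator. The ratio of Mtf2 to Suz12 overlapped between the groups, at 1.07, 0.904 and 0.774 in control against 0.983, 0.930 and 0.981 in Ybx1-KO libraries. Epop had ratios of 0.0465, 0.0901 and 0.111 in control, well under its 0.426, 0.349 and 0.320 in Ybx1-KO libraries. How often ratios to Suz12 part the groups over other genes was not measured.

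Of the 6 core genes, all tested, 0 were called, 1 was positive and 5 were negative, with a median of -0.20 on the log2 scale. Ezh2, the main methyltransferase of dividing cells, measured 158, 156 and 129.5 CPM in control against 110.3, 121 and 72.6 CPM in D to F (log2 fold change -0.55 ± 0.395, edgeR adjusted p = 0.524). Suz12 had 91.2, 101 and 71.3 CPM against 65.0, 62.65 and 50.5 CPM (log2 fold change -0.56 ± 0.368, edgeR adjusted p = 0.490). Both genes were lower in all 3 Ybx1-KO libraries than in any control, a pattern at 8.17% of all tested genes. Among linked genes, Lcorl, a relative of Lcor that yields the Pali2 protein, went from 102, 121 and 62.4 CPM to 58.2, 62.1 and 43.4 CPM (log2 fold change -0.80 ± 0.392, edgeR adjusted p = 0.448), without overlap but with control C beside E. The demethylase Kdm6a had 78.0, 78.0 and 72.3 CPM in control and 58.8, 57.3 and 30.6 CPM in D to F (log2 fold change -0.64). Its groups did not overlap either, and both it and Lcorl showed the pattern seen at 8.17% of all tested genes. That pattern was more frequent among tested genes with a GC content like that of Lcor (42.0%) or Mtf2 (38.2%), at 15.3% and 15.2%. The transcripts of Suz12, Kdm6a, Lcorl and Ezh2 hold 41.6%, 42.5%, 36.7% and 44.4% G and C. The part of GC content in their levels was not tested. Kdm6b had a log2 fold change of 0.55 with overlap, and neither demethylase gene was called. Ezhip, an inhibitor of the methyltransferase, was not tested, with 16 counts in F, 12 in A, 4 in B and 0 in the other 3 libraries.

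**Figure D5:**
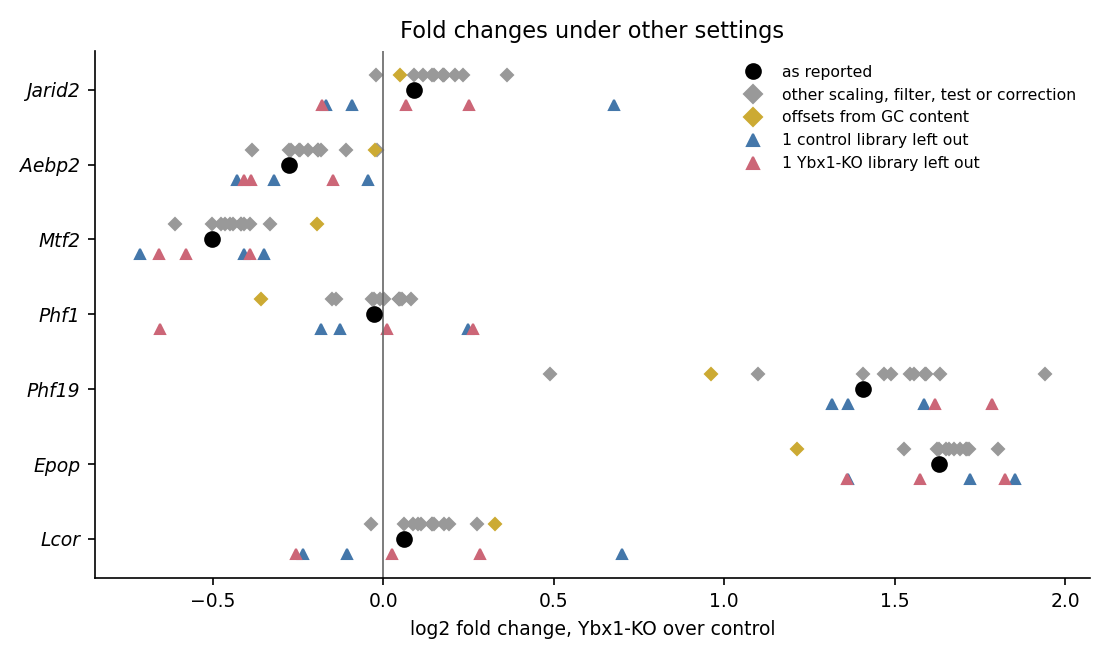
Log2 fold change of each accessory gene as reported (black), under 12 other settings of scaling, filter, test or correction (diamonds, GC offsets in yellow) and with 1 library left out (triangles). Epop stays between 1.21 and 1.85, Mtf2 and Aebp2 stay negative, and Jarid2, Phf1 and Lcor cross 0.

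Under the 12 other settings and with each library left out, 0 of the accessory genes were called. Epop stayed positive in all of them, with a log2 fold change of 1.21 to 1.80 over the settings and 1.36 to 1.85 with 1 library left out, and under each of 3 other scalings it was again the only one of the 7 whose groups did not overlap. Mtf2 ranged from -0.61 to -0.19 and from -0.71 to -0.35, and Aebp2 from -0.39 to -0.018 and from -0.43 to -0.045. Without control B all Ybx1-KO libraries lay above the remaining controls in Jarid2, as did 8.46% of all tested genes. Without control C they lay below in Aebp2 and Mtf2, as did 14.2% of all tested genes. The directions of Jarid2, Lcor and Phf1 turned with the library left out.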

How the data were processed

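The authors aligned stranded, paired-end libraries of total RNA, counted read pairs on GENCODE genes with HTSeq 0.6.1p1, as the submitters' processing notes name it, and deposited raw counts per gene symbol, 1 table per library, without filter or pooling. The aligner and the strand setting are not given in the sources used here. Groups came from the sample labels. The counts were scaled by TMM and tested with edgeR 4.0.16 in R 4.3.3 by the quasi-likelihood test with Benjamini-Hochberg adjustment, without covariates, on genes whose mean FPKM passed 1 in at least 1 group. The limits for a call and the filter follow the study, whose limma-voom (limma 3.58.1) was an alternative, as were DESeq2 1.42.0, other scalings and filters, corrections for background, length and GC content, and leaving out each library. FPKM used the exon union of GENCODE M21 (GRCm38), matched for 47983 of 51733 symbols, and each library's total on genes. GC content is that of the longest transcript. The receptor background is the count density on 1942 receptor genes. Genes named as alike were the nearest 2 by the rule stated with them. Read pairs carry no molecular identifiers, so depth limits cover counting error only. The members and lists were chosen with earlier results of these data known. Figures were drawn with matplotlib 3.10.9.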

Additional observations from a re-analysis of the deposited data

How the results depend on the processing

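With 12 other settings, none of which called an accessory gene, Phf1 turned to 0.046 with DESeq2's size factors, 0.049 with upper-quartile factors, 0.081 with total count only, 0.056 with a CPM filter, 0.046 with DESeq2 and 0.00093 with length offsets. Without a filter Jarid2 was at -0.021 and Lcor at -0.036, all on the log2 scale. Leaving out 1 library gave -0.18 to 0.68 in Jarid2, -0.26 to 0.70 in Lcor, -0.65 to 0.29 in Phf1 and -0.26 to 1.90 in Phf19, which was not tested without F when the filter was applied again. Over all tested genes, 193 were called without a filter, 214 with DESeq2, 110 with GC offsets and 0 to 725 with 1 library left out. With the filter applied again, the calls numbered 725 without E, 696 without D, 73 without B and 0 without A, C or F. On the genes tested with all 6 libraries they numbered 419, 28 and 71 without E, D and B, 46 without F and 0 without A or C. The cause was not tested. The accessory genes without overlap numbered 1 to 3 with 1 library left out. Over all tested genes, all remaining Ybx1-KO libraries then lay above the remaining controls in 6.25 to 11.6% and below them in 9.73 to 15.5%. Epop's unadjusted p in edgeR's test rose above 0.05 with GC offsets (0.0850) and without A (0.0948), D (0.0578) or E (0.0535). On the genes tested with all 6 libraries it was 0.0938, 0.0470 and 0.0426 without these. The leave-out fits on the genes tested with all 6 libraries were chosen after seeing the data. With the longest transcript as length, the mean shares of Epop were 2.35% and 7.05% in place of 3.24% and 9.57%. Depth limits the low genes most: 3 counts are 0.632 CPM in F, and 14 counts of Phf19 in E are its lowest value. No paired analysis was possible because the labels pair no control library with a Ybx1-KO library.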
